A study of Rattus norvegicus with 10 samples.

Results

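The genes described here are the ligands, receptors, adaptor and transcription factors of an innate immune signalling axis that ibudilast is reported to act on. They were listed by name, with earlier results of these data known: Mif, its homolog Ddt, their receptor Cd74, the lipopolysaccharide receptor Tlr4 with its partners Ly96 and Cd14, the adaptor Myd88, and the NF-kB genes Nfkb1, Rela and Nfkbia. All 10 were among the 17168 genes of the deposited count table, and all 10 were among the 12355 that passed the filter on low counts. RNA from the left hippocampus was sequenced from 10 male TgF344-AD rats, a Fischer 344 line with human transgenes, including mutant APP, that develops amyloid pathology. One group of 5 rats (untreated) ate rodent chow. The other group of 5 rats (ibudilast) carried the same transgenes and received ibudilast, an inhibitor of phosphodiesterases, in their chow for 6 months from 5 months of age. Rats of both groups were 11 months old, were anaesthetized with ketamine and xylazine and were perfused with cold saline before the hippocampus was frozen. No wild-type rats were part of the comparison. Only the ibudilast tissue had been kept in RNAlater-ICE, a reagent that preserves RNA in frozen tissue, so the drug and the storage cannot be told apart in any difference below.

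MIF is a cytokine that is stored in cells and released without new synthesis, and it binds CD74, the invariant chain of MHC class II, which signals together with CD44. DDT is its structural homolog and also binds CD74. TLR4 recognises lipopolysaccharide through its partner MD-2, the product of Ly96, with CD14 handing the ligand over, and MYD88 links the receptor to kinases that free NF-kB from its inhibitor. The best-known NF-kB dimer joins p50, made from the Nfkb1 product, with p65, the product of Rela. IkBa, the product of Nfkbia, holds the dimer in the cytoplasm and is itself a classical NF-kB target gene, so its transcript is often read beside the factors. In the brain these receptors are mostly carried by microglia and by macrophages at its borders, whereas Mif and Ddt are also made by neurons and glia.

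The start regions of 5 of the genes are shown because these genes hold the results below: Mif and Ddt, the pair of ligands that passed the test, and the 3 NF-kB genes, whose ratios to each other were compared. Each line gives 150 bases before to 30 bases after the annotated start, 5′ to 3′ on the gene's strand, from RefSeq on the GRCr8 build (the counts were made on rn6). Capitals mark a cAMP response element (TGACGTCA) or a kB motif (GGG, any 3 bases, then TTCC, on either strand). The sites are Mif at chr20:12790207-12790386 (plus strand), Ddt at chr20:12883500-12883679 (plus), Nfkb1 at chr2:226805433-226805612 (minus), Rela at chr1:212354186-212354365 (plus) and Nfkbia at chr6:78597043-78597222 (minus).
Mif: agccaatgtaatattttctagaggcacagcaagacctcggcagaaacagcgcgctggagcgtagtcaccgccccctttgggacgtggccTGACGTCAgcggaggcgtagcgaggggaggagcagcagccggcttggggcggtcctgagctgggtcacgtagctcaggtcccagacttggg
Ddt: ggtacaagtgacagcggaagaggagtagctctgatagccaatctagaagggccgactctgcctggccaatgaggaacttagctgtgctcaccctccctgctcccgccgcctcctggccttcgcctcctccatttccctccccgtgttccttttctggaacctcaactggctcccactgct
Nfkb1: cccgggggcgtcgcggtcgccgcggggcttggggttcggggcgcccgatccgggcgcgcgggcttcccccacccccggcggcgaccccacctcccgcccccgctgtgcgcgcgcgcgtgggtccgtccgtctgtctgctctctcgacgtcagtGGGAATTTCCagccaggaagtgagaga
Rela: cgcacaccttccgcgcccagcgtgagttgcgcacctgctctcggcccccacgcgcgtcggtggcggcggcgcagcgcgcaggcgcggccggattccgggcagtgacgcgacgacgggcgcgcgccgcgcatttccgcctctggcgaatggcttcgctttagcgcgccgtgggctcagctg
Nfkbia: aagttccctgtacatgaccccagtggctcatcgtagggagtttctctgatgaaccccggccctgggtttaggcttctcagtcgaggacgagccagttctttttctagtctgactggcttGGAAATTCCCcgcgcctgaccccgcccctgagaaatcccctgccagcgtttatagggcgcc

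Letters matching these motifs were sought in windows of 300 bases, 250 before to 50 after the start, on both strands. Of the 10 genes, 9 had such a window in the RefSeq table. The Mif window held TGACGTCA, beginning 61 bases before the start, and no other of the 9 windows did, whereas 1.83% of all 33469 promoter windows held it. The kB motif was in 3 of the 9 windows (Cd74, Nfkb1 and Nfkbia), against 5.37% of all windows. In Nfkb1 it read GGGAATTTCC from base 4 after the start, and in Nfkbia GGAAATTCCC from 31 bases before it, which is the motif on the other strand. Ddt and Rela held neither motif. A GC box (GGGCGG, either strand) was in 6 of the 9 windows and in 33.1% of all windows. These are matches of letters and say nothing of binding.

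The libraries held 14806807 to 18533520 expected counts each (17377762 ± 1122314, SD, n = 5 untreated; 16146796 ± 1068409, SD, n = 5 ibudilast). The first principal component of log2 counts scaled to library size (CPM) held 43.8% of the variance. The groups differed at much of the transcriptome: of 12355 genes tested with edgeR, 5817 passed an adjusted p of 0.05 (47.1%), 3004 of them higher with ibudilast (24.3%) and 2813 lower (22.8%), and the CPM of the groups did not overlap for 33.4%. Cell type markers also differed: 7 of 13 tested oligodendrocyte markers were higher, 7 of 12 neuron markers lower, 6 of 11 endothelial markers lower, 4 of 10 astrocyte markers lower and 7 of 19 microglia markers lower in the ibudilast rats. The endothelial count was 11 without ibudilast rat 4. Markers of one list did not move alike: among the microglia markers P2ry12 was at a log2 fold change of −1.36 and Itgam at −1.43, while Aif1 (−0.01), Tmem119 (−0.02) and Tyrobp (0.43) did not pass. In tissue RNA fewer cells of a type and less RNA of these genes per cell cannot be told apart. Of 15 markers of blood leukocytes, 2 passed the low-count filter and neither passed the test; 11 others had at most 26 counts in any library. Untreated rat 3 stood out for high microglia markers, and untreated rat 2 and ibudilast rats 1 and 4 for markers of choroid plexus or border macrophages, as given beside the genes they touch. Untreated rat 3 also had the highest means of the endothelial (5.89 log2 CPM) and astrocyte lists (9.18). Its oligodendrocyte list was the lowest (7.32). Of 9 hippocampus markers tested, 0 were higher and 1 lower (0 to 4 lower over 23 alternative settings). Their mean was 5.17 log2 CPM in untreated rat 3 and 4.91 in ibudilast rat 4, against 6.10 to 6.94 in the other rats. The neuron list was also lowest in ibudilast rat 4 (7.36).

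Of the 10 genes, 2 were higher with ibudilast (Mif and Ddt), 0 were lower and 8 did not pass the test. This compares with 24.3% of all genes higher and 22.8% lower. The groups did not overlap for 2 of the 10 genes, against 33.4% of all genes. Their median log2 fold change was 0.06, against 0.02 over all genes tested.

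**Figure D1:**
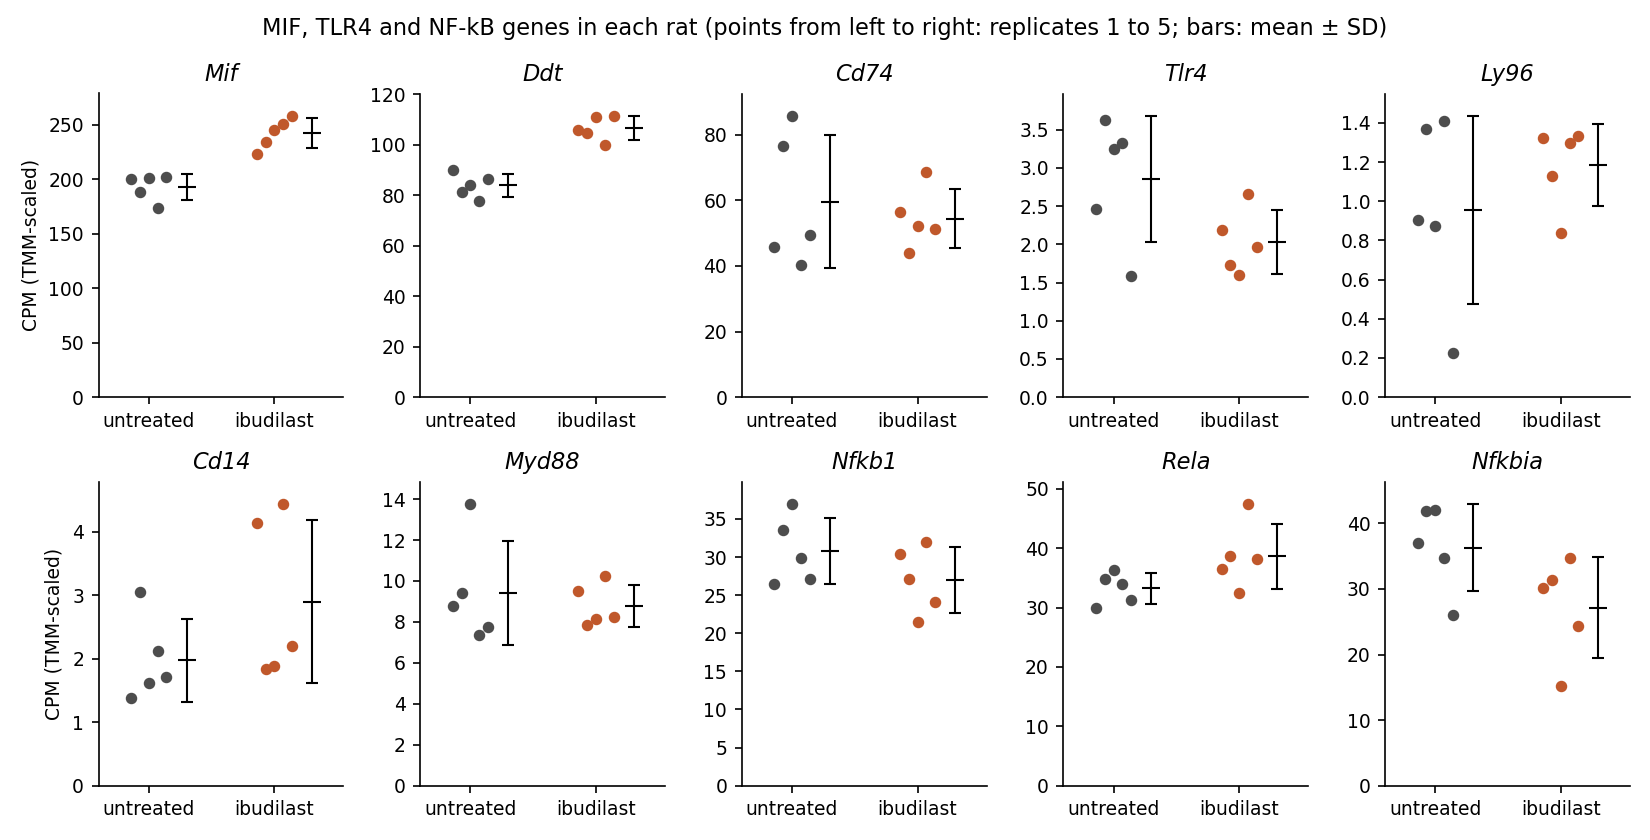
CPM of the 10 genes in each rat, scaled by TMM library sizes, with untreated rats in grey and ibudilast rats in orange, replicates 1 to 5 from left to right, and the mean ± SD beside them. Mif and Ddt are the 2 genes whose groups do not overlap.

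Among the ligands, Mif rose. Its CPM was 200.4, 188, 201, 174 and 202 in untreated rats 1 to 5 and 224, 234, 245, 251 and 258 in ibudilast rats 1 to 5. Every ibudilast rat lay above every untreated rat, and the gap between the highest untreated and the lowest ibudilast value was wider than the SD of either group. The means were 193 ± 12.2 (SD, n = 5) and 242 ± 13.7 CPM (SD, n = 5), a log2 fold change of 0.33 ± 0.07 (SE, edgeR adjusted p = 0.00329). On the linear scale this was 1.25-fold, with a 95% interval of 1.13 to 1.40. The median absolute log2 fold change of all genes tested was 0.363.

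Ddt, the homolog of Mif, rose by nearly the same fold. Its CPM was 89.9, 81.2, 84.0, 77.6 and 86.4 in the untreated rats and 106, 105, 111, 99.7 and 111 in the ibudilast rats. Again the groups did not overlap, and the means were 83.8 ± 4.71 and 107 ± 4.80 CPM (SD, n = 5 each). The log2 fold change was 0.35 ± 0.06 (edgeR adjusted p = 0.000968), or 1.27-fold with a 95% interval of 1.16 to 1.39. The ratio of Mif to Ddt counts within a rat, which does not depend on how libraries are scaled, ran from 2.23 to 2.39 in untreated and from 2.11 to 2.51 in ibudilast rats. Its mean log2 value was 1.2 ± 0.04 and 1.18 ± 0.09 (SD, n = 5 each), a difference of −0.02 (exact permutation test, two-sided, p = 0.690). Mif and Ddt lie near each other on chromosome 20 in RefSeq. Of the 5 other protein-coding genes between them or overlapping that stretch, 3 were tested: Gstt2, a glutathione transferase, was higher (log2 fold change 0.64, adjusted p = 0.00388), while Gstt1 (0.54, adjusted p = 0.0600) and Gstt3 (0.26, adjusted p = 0.0830) did not pass.

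**Figure D2:**
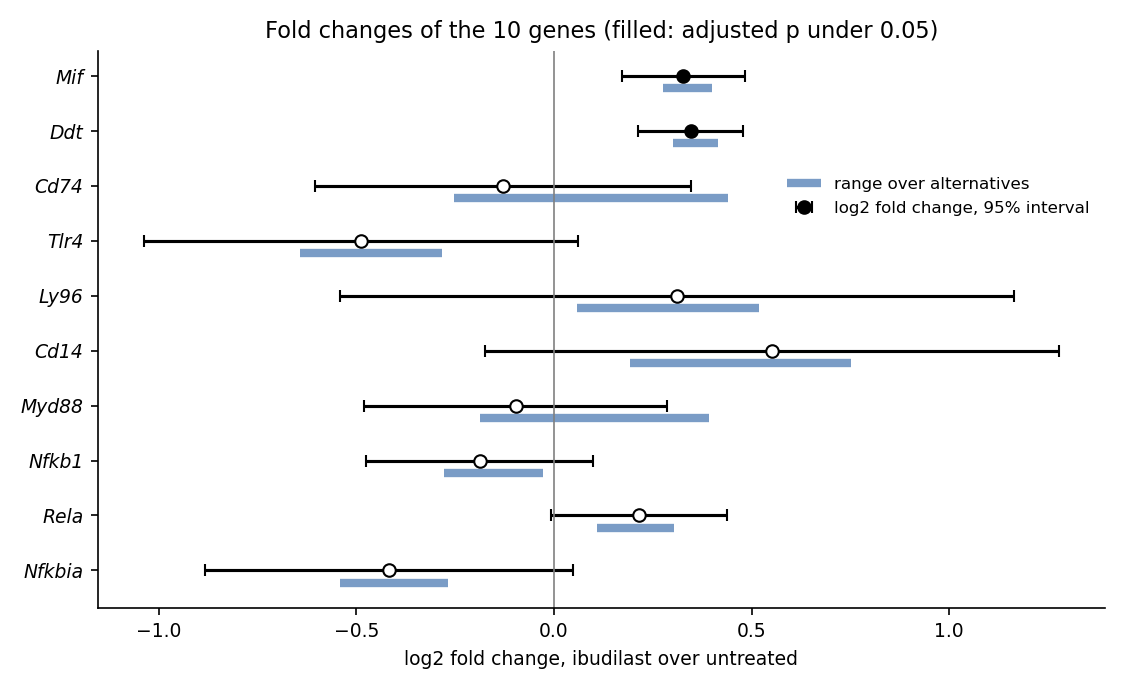
Log2 fold change of each gene, ibudilast over untreated, with its 95% interval (filled circles passed an adjusted p of 0.05), and in blue the range over 23 alternative settings. The intervals of Mif and Ddt lie above 0 and those of the other 8 genes include 0.

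Cd74, the receptor of both ligands, did not pass the test. Its CPM was 45.7, 76.6, 85.7, 40.2 and 49.4 in the untreated rats and 56.4, 43.9, 52.1, 68.6 and 51.2 in the ibudilast rats. The groups overlapped fully, and untreated rats 2 and 3 were the highest of all 10 rats. The means were 59.5 ± 20.3 and 54.4 ± 9.10 CPM (SD, n = 5 each), a log2 fold change of −0.13 with a 95% interval of −0.60 to 0.35 (adjusted p = 0.655). Microglia markers were also highest in untreated rat 3, with a mean of 5.65 log2 CPM against 4.43 to 4.89 in the other 9 rats. The endothelial and astrocyte markers were highest in that rat too. Over the 19 microglia markers tested, 0 were higher and 7 lower, and their summed level was 798 to 1515 CPM in untreated and 694 to 839 in ibudilast rats, with no marker tested at 0 in all libraries. Without untreated rat 3 the log2 fold change of Cd74 was 0.012, and with the microglia list in the model it was 0.15. The mean of that list was 4.748 to 5.65 log2 CPM in untreated and 4.43 to 4.745 in ibudilast rats. As these do not overlap, that model cannot fully separate the list from the group.

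Of the class II genes and the proteases that process CD74, 8 were tested (11 listed). Of these, 0 were higher, 2 lower and 6 did not pass (all genes: 24.3% higher, 22.8% lower), with a median log2 fold change of −0.29. The 2 that fell were proteases of the CD74 chain: Ctss (cathepsin S), from 366 ± 128 to 197 ± 11.3 CPM, a log2 fold change of −0.89 (adjusted p = 0.00315), and Sppl2a, from 10.1 ± 1.03 to 5.91 ± 1.67 (−0.78, adjusted p = 0.00449). With the microglia list in the model Ctss was at −0.44 (edgeR adjusted p = 0.00277). With the oligodendrocyte list neither protease passed, Ctss at −0.48 (edgeR adjusted p = 0.157) and Sppl2a at −0.68 (adjusted p = 0.0896). The oligodendrocyte list mean was 7.32 to 8.24 log2 CPM in untreated and 8.29 to 8.63 in ibudilast rats. As these do not overlap, that model cannot fully separate the list from the group. RT1-Da, one of several rat class II alpha chains, was at 14.9 ± 5.41 and 11.1 ± 3.23 CPM (−0.42, adjusted p = 0.210). Within each rat, however, Cd74 counts stood higher relative to RT1-Da in the ibudilast group. The ratio was 4.57, 3.79, 4.02, 3.73 and 4.0 in untreated rats and 4.75, 5.44, 5.40, 4.19 and 5.26 in ibudilast rats, so that ibudilast rat 4 lay within the untreated range. The mean log2 ratio was 2.0 ± 0.12 and 2.32 ± 0.16 (SD, n = 5 each), 1.24-fold higher (exact permutation test, p = 0.0159; adjusted over the 6 pairs, 0.0238). The ratio is between counts not corrected for transcript length, so only its change is meaningful. RT1-Da had the lowest log2 fold change of the class II chains tested. The others were at −0.37 (RT1-Ba), −0.22 (RT1-DMa), −0.20 (RT1-Db1), −0.15 (RT1-Bb) and 0.0041 (RT1-DMb), and none passed. Ratios of Cd74 to these were not tested, so the shift is relative to RT1-Da and not to class II genes at large.

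Tlr4 was at the low end of the filtered range, with 23 to 69 counts per library. Its CPM was 2.46, 3.63, 3.25, 3.33 and 1.59 in the untreated rats and 2.19, 1.73, 1.60, 2.66 and 1.97 in the ibudilast rats. The 3 highest rats were untreated, but untreated rat 5 was the lowest of all. The log2 fold change was −0.49 with a 95% interval of −1.04 to 0.06 and an adjusted p of 0.132 by edgeR. It was −0.64 without untreated rat 5, with an adjusted p of 0.0343. With all rats and the border macrophage list in the model it was −0.58 (adjusted p = 0.0406).

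Its partner Ly96 had only 4 to 26 counts per library. Its CPM was 0.902, 1.37, 0.874, 1.41 and 0.227 in the untreated rats and 1.32, 1.13, 0.837, 1.30 and 1.33 in the ibudilast rats, and the 0.227 of untreated rat 5 rests on 4 counts. The log2 fold change was 0.31 with a 95% interval of −0.54 to 1.17 (adjusted p = 0.538), an interval that spans changes of either sign. Relative to Tlr4 in the same rat, Ly96 was higher in every ibudilast rat than in any untreated rat. The ratio was 0.373, 0.381, 0.276, 0.429 and 0.158 in the untreated rats and 0.610, 0.661, 0.532, 0.495 and 0.681 in the ibudilast rats. The mean log2 ratio was −1.71 ± 0.58 and −0.76 ± 0.20, a difference of 0.95 or 1.94-fold (SD, n = 5 each; exact permutation test, p = 0.00794, the smallest these group sizes allow; adjusted p = 0.0238).

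Cd14 hands lipopolysaccharide to the TLR4 complex. Its CPM was 1.38, 3.05, 1.62, 2.11 and 1.71 in the untreated rats and 4.15, 1.85, 1.88, 4.43 and 2.20 in the ibudilast rats. The 3 highest values were in ibudilast rats 4 and 1 and untreated rat 2, and the log2 fold change of 0.55 (95% interval −0.17 to 1.28) did not pass (adjusted p = 0.192). These libraries were also high for markers of border macrophages or choroid plexus, but not all for the same list. The border macrophage list averaged 2.71 log2 CPM in untreated rat 2, 3.91 in ibudilast rat 4 and 1.22 in ibudilast rat 1. The choroid plexus list averaged 7.21 in untreated rat 2, 6.84 in ibudilast rat 1 and 3.05 in ibudilast rat 4. It was 3.07 in ibudilast rat 2, where Cd14 was at 1.85 CPM. Whether Cd14 follows either list was not tested. Of 5 border macrophage markers tested 0 passed in either direction, with summed levels of 8.24 to 35.7 CPM in untreated and 10.7 to 76.9 in ibudilast rats. Of 8 choroid plexus markers 0 passed, with 29.6 to 7937 and 75.9 to 7241 CPM. The log2 fold change of Cd14 was 0.42 with the border macrophage list in the model and 0.49 with the choroid plexus list. It was 0.19 without untreated rats 2 and 3 and ibudilast rats 1 and 4. That set includes the 3 rats highest in Cd14, so this smaller fold cannot tell why they were high. Cd14 counts were not whole in all 10 libraries, so part of its reads was shared out by the authors' estimation and its value is uncertain.

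The ratio of Cd14 to Tlr4 within a rat was 0.566, 0.842, 0.505, 0.638 and 1.07 in untreated and 1.88, 1.07, 1.17, 1.66 and 1.12 in ibudilast rats, where ibudilast rat 2 lay just below untreated rat 5. The mean log2 difference was 0.95, or 1.93-fold (exact permutation test, p = 0.0159; adjusted p = 0.0238). Without the 4 libraries named above it was 0.62 with overlapping groups, 3 rats against 3 for which no p under 0.1 is possible. Those libraries include the 3 highest in Cd14, so the smaller difference cannot tell why they were high. Tlr4 is the denominator of both ratios, so they share its values.

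**Figure D3:**
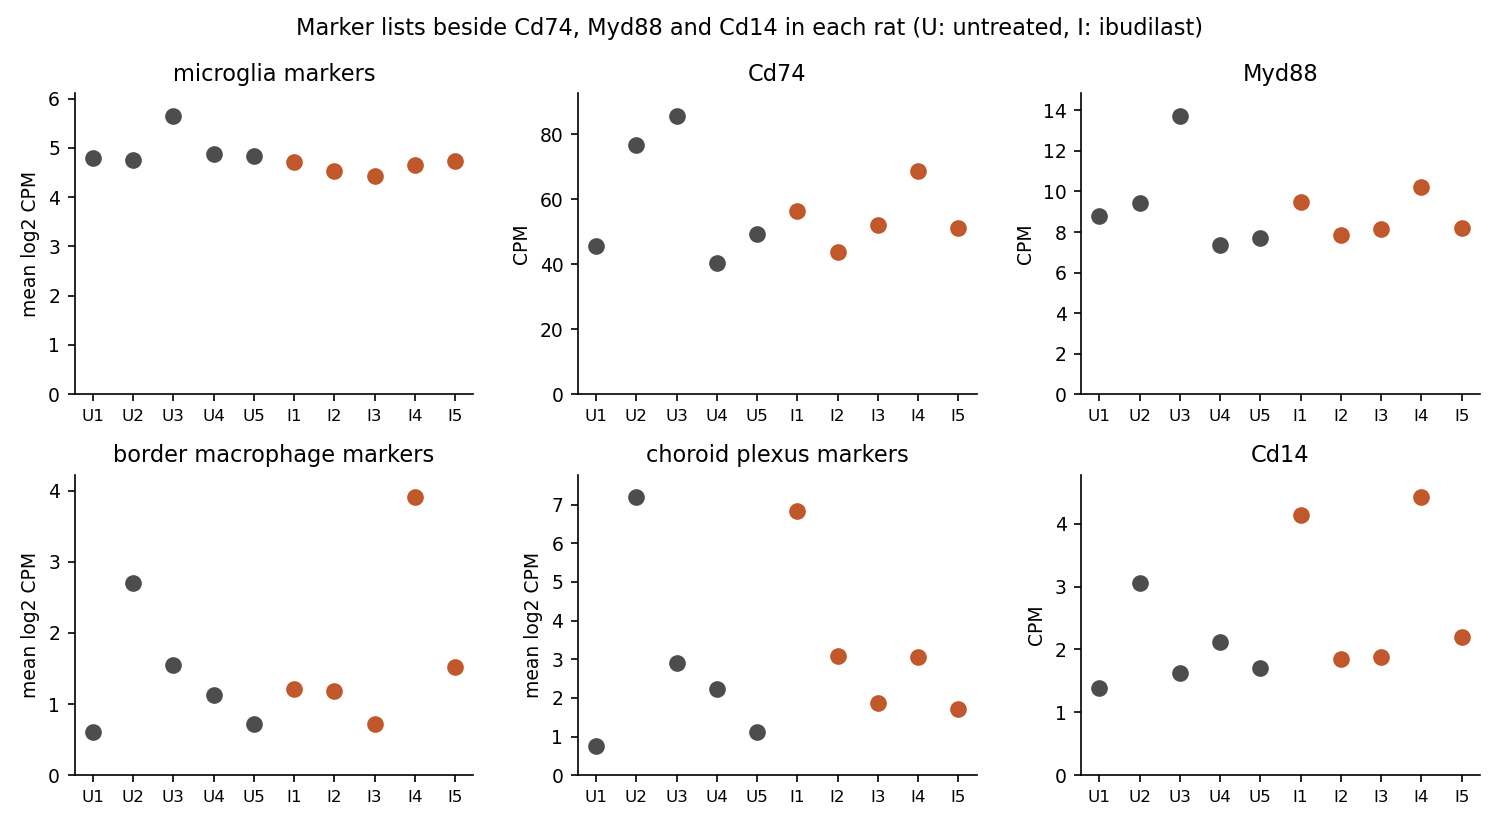
Mean log2 CPM of 3 marker lists, and CPM of Cd74, Myd88 and Cd14, in each rat (U, untreated; I, ibudilast). Microglia markers peak in untreated rat 3, as Cd74 and Myd88 do. Border macrophage markers peak in untreated rat 2 and ibudilast rat 4, the rats next highest in Cd74. Choroid plexus markers peak in untreated rat 2 and ibudilast rat 1. Cd14 is highest in untreated rat 2 and ibudilast rats 1 and 4.

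Myd88, the adaptor, did not pass. Its CPM was 8.78, 9.42, 13.7, 7.37 and 7.73 in untreated and 9.50, 7.86, 8.16, 10.2 and 8.22 in ibudilast rats. The highest value was in untreated rat 3, where the microglia, endothelial and astrocyte markers were also highest. The log2 fold change was −0.10 with a 95% interval of −0.48 to 0.29 (adjusted p = 0.678). It was 0.053 without untreated rat 3. Myd88 overlaps Acaa1a in RefSeq, and no source used here says whether the counting used strand.

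The NF-kB subunits did not pass either, and their point estimates had opposite signs. Nfkb1 was at 26.5, 33.5, 36.9, 29.9 and 27.2 CPM in untreated and 30.4, 27.1, 21.5, 32.0 and 24.1 in ibudilast rats (log2 fold change −0.19, 95% interval −0.48 to 0.10, adjusted p = 0.260). Rela was at 29.9, 34.8, 36.4, 34.0 and 31.3 CPM in untreated and 36.5, 38.6, 32.4, 47.4 and 38.1 in ibudilast rats (0.22, −0.01 to 0.44, adjusted p = 0.104). Rela was highest in ibudilast rat 4, which also stood out for border macrophage markers, and the groups overlapped for both genes. The ratio of Rela to Nfkb1 did not overlap: it was 0.986 to 1.15 in untreated rats and 1.2 to 1.58 in ibudilast rats. The mean log2 ratio rose from 0.12 ± 0.10 to 0.52 ± 0.15 (SD, n = 5 each), a 1.32-fold difference (exact permutation test, p = 0.00794; adjusted p = 0.0238). It was 0.40 on the log2 scale with all rats and 0.40 without the 4 libraries that stood apart.

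Nfkbia, the inhibitor and classical NF-kB target, was at 37.0, 41.9, 42.0, 34.7 and 26.0 CPM in untreated and 30.2, 31.4, 15.2, 34.7 and 24.3 in ibudilast rats. The means were 36.3 ± 6.57 and 27.2 ± 7.67 CPM (SD, n = 5 each), a log2 fold change of −0.42 with a 95% interval of −0.88 to 0.05 (edgeR adjusted p = 0.127). Ibudilast rat 3 was lowest, and the groups overlapped. The log2 ratio of Nfkbia to Nfkb1 was 0.23 ± 0.20 in untreated and −0.03 ± 0.27 in ibudilast rats, and the difference of −0.26 did not pass (exact permutation test, p = 0.119; adjusted p = 0.143). Of the 6 ratios tested, 4 passed: Ly96 to Tlr4, Cd14 to Tlr4, Rela to Nfkb1 and Cd74 to RT1-Da. How often ratios of other gene pairs would pass was not tested. With 47.1% of all genes called singly, the count is not a trait shown for these genes.

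**Figure D4:**
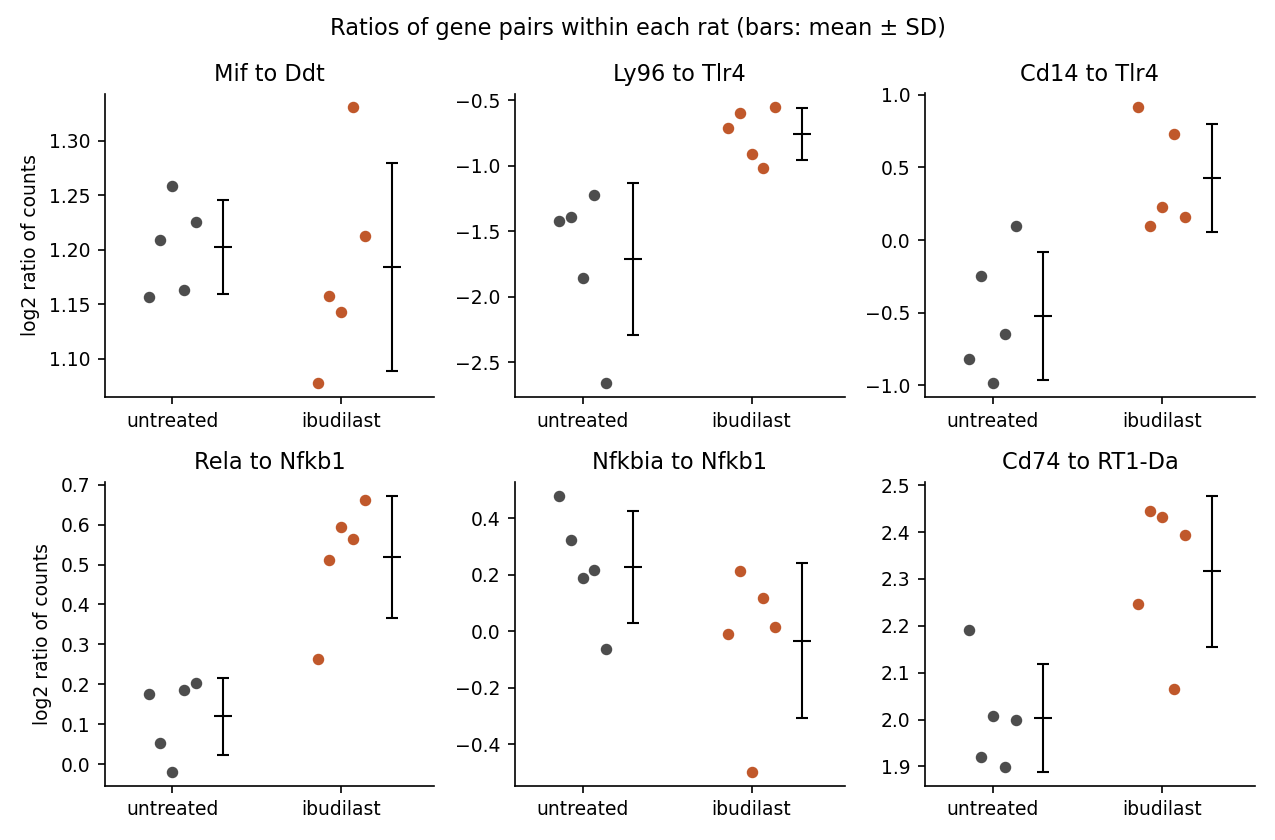
Log2 ratio of counts of 6 gene pairs within each rat (untreated grey, ibudilast orange), with the mean ± SD. The groups do not overlap for Ly96 to Tlr4 and Rela to Nfkb1, and they overlap for the other 4 pairs.

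Around these genes, the 6 lists of MIF partners, class II genes, other Toll-like receptors, adaptors and kinases, NF-kB core and NF-kB targets held 113 genes. Of 80 that could be tested, 16 were higher, 20 lower and 44 did not pass, so that 45% were called against 47.1% of all genes, with a median log2 fold change of −0.08 against 0.02. These shares are near the background. Among MIF partners (7 tested), the transcription factor Hif1a fell from 81.7 ± 10.7 to 43.2 ± 4.53 CPM, a log2 fold change of −0.92 (adjusted p = 9.37e-05), while Sod1, superoxide dismutase, rose from 169.6 ± 7.22 to 201 ± 16.8 (0.24, adjusted p = 0.0165) and the other 5 did not pass. Sod1 did not pass without untreated rat 2 or 4 (adjusted p = 0.0635 and 0.0556).

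Among the other Toll-like receptors and their chaperones (11 tested), 1 was higher and 5 lower (all genes: 24.3% higher, 22.8% lower). The median log2 fold change was −0.44. Tlr6 rose from 8.94 ± 1.25 to 23.8 ± 2.89 CPM (1.41, adjusted p = 2.11e-05), but its counts were not whole in all 10 libraries. Its close paralog Tlr1, with counts also not whole in all 10 libraries, was at 0.723 and 0.780 CPM (edgeR adjusted p = 0.845). How reads were shared between Tlr6 and Tlr1 is uncertain. Hsp90b1, the chaperone that folds these receptors, fell from 474 ± 45.0 to 320.5 ± 20.3 CPM (−0.56, adjusted p = 0.000460). Cd180 (RP105), a TLR4 homolog that restrains it, fell from 9.44 ± 2.32 to 5.10 ± 1.05 (−0.89, adjusted p = 0.00369), and the endosomal RNA sensor Tlr7 from 9.15 ± 2.44 to 5.32 ± 1.16 (−0.78, adjusted p = 0.0103). The other 2 that fell, named after their values were seen, were Tlr2 and Tlr9 at log2 fold changes of −0.75 and −1.10. Of the microglia markers, 7 of 19 fell. With the microglia list in the model Cd180 was at −0.57 (edgeR adjusted p = 0.0268) and the chaperone Hsp90b1 at −0.66 (adjusted p = 0.000297). Tlr7 was at −0.44, which no longer passed (adjusted p = 0.0776). Tlr2 and Tlr9 did not pass there either, so that 2 of the receptor and chaperone list were lower, against 1 with the oligodendrocyte list and 3 with the replicate block. In the model with the microglia list, 7 of its own markers were higher and 7 lower, so it is no clean measure of the amount of microglia. The means of the microglia and oligodendrocyte lists also did not overlap between groups. Models with them thus cannot fully separate the list from the group. Whether the falls follow microglia was not tested.

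**Figure D5:**
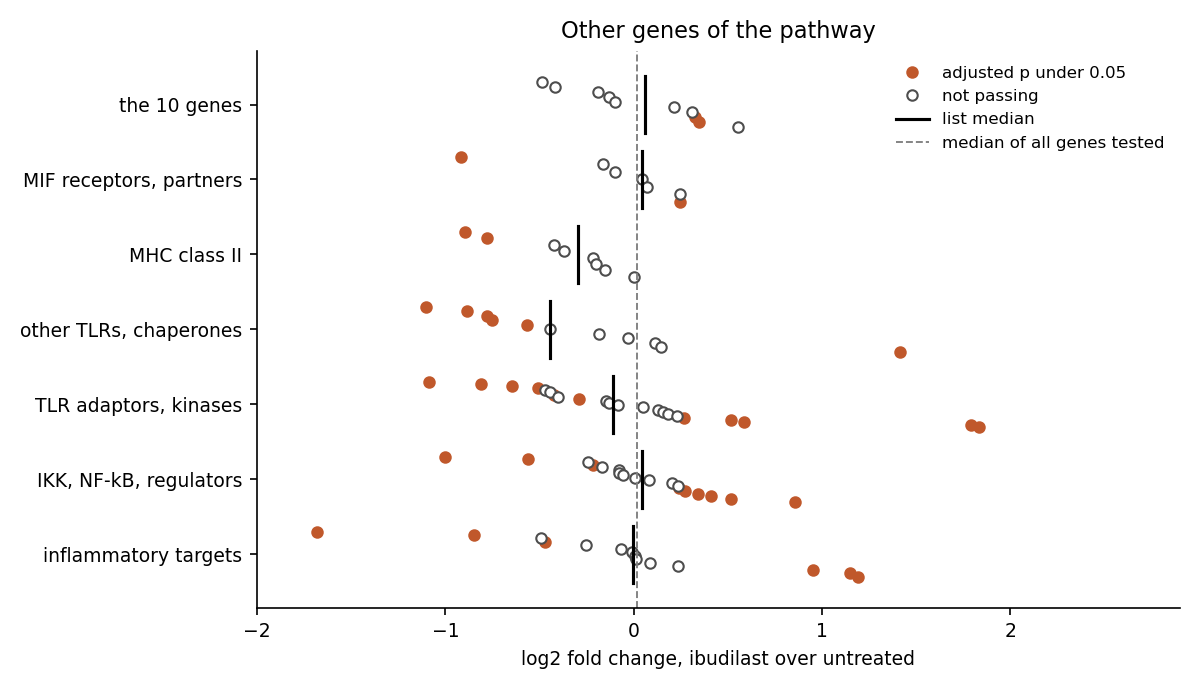
Log2 fold change, ibudilast over untreated, of the 10 genes and the 80 tested genes of the 6 pathway lists; filled points passed an adjusted p of 0.05, black bars are list medians and the dashed line is the median of all genes tested. The list of other Toll-like receptors and chaperones has the lowest median, −0.44.

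Among the adaptors and kinases (22 tested), 5 were higher and 6 lower, near the shares of all genes (24.3% and 22.8%). The higher count was 8 without untreated rat 3 and 10 with the microglia list in the model. Irf3, the interferon regulatory factor of TLR signalling, rose from 21.7 ± 6.97 to 75.1 ± 7.96 CPM, a log2 fold change of 1.79 (adjusted p = 5.38e-05), though it overlaps Bcl2l12. Ikbke, an IKK-related kinase, rose from 2.89 ± 1.16 to 10.3 ± 2.64 (1.83, adjusted p = 0.000364) and Tab1, a TAK1 partner, from 40.9 to 49.2 (0.27, adjusted p = 0.00425). The other 2 that rose, named after their values were seen, were Irak3 (0.59) and Ripk1 (0.52). Peli1, a ubiquitin ligase of the pathway, fell from 37.0 ± 1.95 to 17.4 ± 2.76 CPM (−1.09, adjusted p = 4.08e-05), and Peli2 fell from 17.6 to 10.0 (−0.81, adjusted p = 0.000777; counts not whole in all 10 libraries). Tab2, a TAK1 partner, fell from 75.5 to 56.3 (−0.42, adjusted p = 0.000963). The others that fell, also named after their values were seen, were Traf6 (−0.64), Ube2n (−0.51) and Tollip (−0.29).

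Of the NF-kB core (18 tested), 6 were higher and 3 lower (all genes: 24.3% higher, 22.8% lower). The kinase Ikbkb, which phosphorylates IkBa, rose from 25.5 ± 3.64 to 36.5 ± 3.47 CPM, a log2 fold change of 0.52 (adjusted p = 0.00247), though it overlaps Plat. Tnip1, an inhibitor, rose from 67.7 to 79.9 (0.24, adjusted p = 0.00552) and the kinase Map3k14 from 15.1 to 19.2 (0.34, adjusted p = 0.00725). Cyld, a deubiquitinase that limits the pathway, fell from 82.3 ± 6.02 to 41.2 ± 3.20 (−1.0, adjusted p = 1.51e-05), Btrc, the ligase subunit that recognises phosphorylated IkBa, from 54.3 to 36.8 (−0.56, adjusted p = 0.000490), and Birc2 from 29.4 to 25.3 (−0.21, adjusted p = 0.0404). The Birc2 call was lost in 9 alternatives, among them library size alone (−0.14, adjusted p = 0.222). The members that moved thus included activators and inhibitors in each direction, and the median was 0.04.

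The inflammatory target list (14 tested) moved both ways too, with 3 higher, 3 lower (all genes: 24.3% higher, 22.8% lower) and a median of 0.00. Il18 rose from 3.39 to 7.53 CPM, a log2 fold change of 1.15 (adjusted p = 0.000553; it overlaps Bco2 and Tex12), Il1rn, the interleukin receptor antagonist, from 2.38 to 5.43 (1.19, adjusted p = 0.00165; counts not whole in 9 libraries and an overlap with Il36b) and Sele from 0.579 to 1.12 (0.95, adjusted p = 0.00563; not whole in 10). Vcam1, an adhesion molecule, fell from 59.3 ± 11.3 to 33.0 ± 3.83 (−0.85, adjusted p = 0.000445), Ptgs2 (cyclooxygenase) from 19.2 ± 6.72 to 5.98 ± 2.38 (−1.68, adjusted p = 0.00360) and Sod2, the mitochondrial superoxide dismutase, from 137 ± 8.86 to 98.9 ± 5.62 (−0.47, adjusted p = 0.000289). The best-known cytokine targets were too scarce to test: Tnf had 1 to 11 counts per library, Il1b 1 to 8 and Il6 0 to 5, and the 9 others below the filter, among them Ccl2, Nos2 and Lcn2, had at most 21.

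Genes most like Mif in their spread between rats, after removal of each group's mean, were Cntfr (Pearson r = 0.959), Srrm3 (0.929) and Psmf1 (0.915) over 10 libraries, among 9962 genes compared. For Cd74 they were Man2b1 (0.972), Gys1 (0.966) and RT1-Da (0.961). For Tlr4 they were Tec (0.941), Klf4 (0.921) and Cyr61 (0.910), and for Nfkbia Entpd1 (0.900), B3gnt2 (0.899) and Ttf2 (0.897). All points share libraries, depth and cell makeup, so these are descriptions without a test.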

How the data were processed

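Left hippocampal RNA of 5 untreated and 5 ibudilast rats was measured in 1 library per rat, with groups taken from sample labels. Per the labels, libraries came from a stranded mRNA kit. The deposited table holds expected counts estimated by the authors; tools listed in the submitters' processing notes were RSEM 1.2.15, Bowtie2 2.1.0, bcl2fastq and edgeR, with the rn6 build. Of the values, 12% were not whole; they were rounded before testing. A second deposited table of normalized counts was not used. Spreadsheet dates replaced symbols in 25 of 17168 rows, which are not named; 0 columns lacked a sample.

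Genes were compared in R 4.3.3 with edgeR 4.0.16 (limma 3.58.1), by a robust quasi-likelihood fit with TMM factors, a low-count filter (filterByExpr, minimum count 10) and Benjamini-Hochberg adjustment over 12355 genes at 0.05. The scripts were tested on simulated data with far fewer changed genes than passed here. They recovered 21 of 100 genes changed by log2 0.5 and 70 of 99 changed by log2 1, and 5 of 96 calls were false. Genes that did not pass may thus still differ. CPM used TMM-scaled library sizes (prior count of 2 for log2 CPM). Within-rat ratios added 0.5 to each count and were tested by exact permutation over rats, adjusted over 6 pairs. No pair of libraries within a group agreed within sampling noise (lowest chi-square per gene 11.5). The p-values measure the spread between rats. Members and gene lists were chosen with earlier results of these data known. Named genes were all 10 members, up to 3 higher and 3 lower per pathway list by smallest adjusted p, RT1-Da, and the 3 genes most like each of 4 members among genes of at least 5 CPM. Alternatives covered scaling (RLE, upper quartile, library size), filters, DESeq2 1.42.0, limma-voom, leaving out rats, a replicate block and marker lists as covariates, 2 of those lists and the ratios without 4 libraries being added after seeing the data. Motif searches used RefSeq GRCr8 promoter windows, and no coordinate was converted between builds.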

Additional observations from a re-analysis of the deposited data

Results flagged for a closer look

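No gene among the 10 had a rat far from the others of its group. Among the 48 genes named, 6 of 96 groups of 5 rats held such a rat by Dixon's test, where chance alone flags about 1 in 20 groups. Untreated rat 3 held 5 of the 6. Its CPM was 590 for Ctss, with the next rat at 332, and 13.5 for Cd180, with the next at 8.98. For Ikbke it was 4.87 against 2.73 in the next rat, and for Vcam1 79.4 against 56.4. For Ptgs2 the same rat was low, at 7.49 CPM against 20.2 in the nearest. Ibudilast rat 4 was at 19.4 CPM for Cyr61, with the next rat at 7.72.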

How the results depend on the processing

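Mif (log2 fold change 0.28 to 0.40) and Ddt (0.30 to 0.41) kept their direction and their call in all 23 alternatives, with adjusted p up to 0.0238 and 0.0109, and the 4 ratios that passed kept their call when each rat was left out in turn and with 2 added to each count or unrounded counts (adjusted p up to 0.0476). Without the 4 libraries, 3 rats against 3, no ratio could pass the exact permutation test (smallest p possible 0.1), and the groups of Cd14 to Tlr4 overlapped (p = 0.2). No member call changed under another scaling, filter or tool. Correlations of same-numbered deviations were −0.304, −0.328, −0.245, −0.108 and 0.416. Differently numbered rats were not compared, so these values cannot decide whether the replicate numbers pair the rats. The replicate block gave 4726 calls against 5817 and changed no member call. Not passing in the main fit, Tlr4 passed with the border macrophage list in the model (−0.58, adjusted p = 0.0406) and without untreated rat 5 (range −0.64 to −0.40 leaving out each rat), Nfkbia with the border macrophage list (−0.50, adjusted p = 0.0386), and Rela without ibudilast rat 3 (range 0.11 to 0.27). Thus 2 members were lower with that list and 0 to 1 leaving out a rat, and 2 to 3 higher. The ratio of Nfkbia to Nfkb1 ranged from −0.33 to −0.15, passing without untreated rat 5 (adjusted p = 0.0476), and that of Mif to Ddt from −0.055 to 0.0082. Cd74 turned to 0.12 without the 4 libraries, 0.15 with the microglia list and 0.44 with the oligodendrocyte list (leave-one-out range −0.25 to 0.012), and Myd88 to 0.021, 0.22 and 0.39 (−0.19 to 0.053). With the oligodendrocyte list 1943 genes were higher and 1763 lower, and RT1-Da was at 0.068. Tec turned to −0.0054 with RLE factors, −0.010 without a filter, −0.0053 with DESeq2, −0.085 and −0.016 with the border macrophage and choroid plexus lists (leave-one-out −0.14 to 0.13), and Ttf2 ranged from −0.028 to 0.21. The means of the microglia and oligodendrocyte lists did not overlap between groups, so a model with either cannot fully separate the list from the group. With the oligodendrocyte list calls were also lost for Sod1 (0.27), Tnip1 (0.24), Tab1 (0.22) and Sppl2a (−0.68), whose folds stayed near the main ones, and for Ctss (−0.48), Cd180 (−0.62), Tlr7 (−0.39) and Sele (0.61). The causes were not tested. Calls higher made up 51.6% of all calls, 59.8% with library size alone. Tlr4, Ly96 and Cd14 rest on 4 to 75 counts per library; the part of depth in their wide intervals was not tested.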
